A study of Homo sapiens with 6 samples.

Results

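The Rag GTPases, folliculin with its FNIP partners, and the MITF/TFE transcription factors were examined in Hs578T, a mesenchymal triple-negative breast cancer cell line, with and without knockdown of CCN3, a secreted matricellular protein. The members are the 10 genes RRAGA, RRAGB, RRAGC, RRAGD, FLCN, FNIP1, FNIP2, MITF, TFEB and TFE3, taken by symbol from a table of read counts for 46427 genes. They were chosen by name with earlier results of the same contrast known, RRAGD being among the genes that the study itself displayed as changed in these libraries. Their differences between the groups are therefore given as a description, without p-values.

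Both groups carried a retroviral pSUPER vector in the same cell line. The 3 shCTRL libraries (genotype Control) carried a control shRNA, and the 3 shCCN3 libraries (genotype CCN3 KD) carried 1 shRNA against CCN3. The labels describe the 3 libraries of a group as independent biological replicates, and the methods describe 1 transduced and drug-selected cell line for each shRNA, so an effect of the shRNA and a difference between the lines cannot be told apart. Expression was measured by stranded mRNA sequencing of whole cultures, in which fewer cells of a type and less RNA per cell cannot be told apart.

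Rag GTPases sit on the lysosome as dimers of RagA or RagB with RagC or RagD, and in cells with enough amino acids they bring the kinase complex mTORC1 to the lysosomal surface. Folliculin, bound to FNIP1 or FNIP2, is the GTPase activating protein for RagC and RagD. MITF, TFEB and TFE3 are related basic helix-loop-helix factors that dock on active Rag dimers and are phosphorylated by mTORC1, which holds them in the cytoplasm. When released into the nucleus they bind E-boxes, among them the palindrome CACGTG, in genes of lysosomes and autophagy and in RRAGD itself, and in pigment cells MITF also binds the related M-box, which contains TCATGTG. Where these proteins are in the cell and whether they are phosphorylated was not measured by RNA sequencing.

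Since the factors read such short motifs, the start sites of the members were searched for them. RefSeq promoter windows on GRCh38.p14, 300 bases long with 250 before and 50 after the start, were matched for 8 of the 10 members in 13 windows, all but RRAGA and RRAGD. CACGTG stood in the windows of 3 members, RRAGB, RRAGC and FNIP1, and in 7.26% of all 35116 windows. Each of these 3 members has 1 window, so CACGTG stood in 3 of the 13 member windows. The difference from the share of all windows was not tested. The 250 bases before the start of these 3 genes are printed 5′ to 3′ on the strand of the gene, with CACGTG in capitals.
RRAGB, chrX:55717499-55717748, plus strand: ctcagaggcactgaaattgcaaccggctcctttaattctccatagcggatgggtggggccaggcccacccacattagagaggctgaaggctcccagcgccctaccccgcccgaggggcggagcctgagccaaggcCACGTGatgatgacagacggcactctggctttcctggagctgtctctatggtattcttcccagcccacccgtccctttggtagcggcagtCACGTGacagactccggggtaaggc
RRAGC, chr1:38859773-38860022, minus strand: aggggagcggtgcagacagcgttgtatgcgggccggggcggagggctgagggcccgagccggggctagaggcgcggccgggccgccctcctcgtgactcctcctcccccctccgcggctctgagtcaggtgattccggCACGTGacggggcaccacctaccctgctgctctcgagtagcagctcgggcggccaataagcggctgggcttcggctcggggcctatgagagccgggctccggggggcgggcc
FNIP1, chr5:131797018-131797267, minus strand: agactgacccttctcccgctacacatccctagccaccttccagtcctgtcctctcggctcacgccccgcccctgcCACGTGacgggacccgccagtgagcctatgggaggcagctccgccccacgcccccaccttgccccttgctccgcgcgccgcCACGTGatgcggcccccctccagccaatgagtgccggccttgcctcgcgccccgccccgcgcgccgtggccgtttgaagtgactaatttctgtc

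Counted from the start, the RRAGB matches began at -115, -25 and 7, the last of them beyond the printed stretch. The RRAGC match began at -112, and those of FNIP1 began at -175 and -94. CACGTG was not in the windows of FLCN, FNIP2, MITF, TFEB and TFE3. TCATGTG, searched on both strands, was in 2.92% of all windows and in 1 window of FNIP2, where it began at -142. GPNMB, a lysosomal and melanosomal glycoprotein that MITF/TFE factors switch on, is followed below and held TCATGTG at 2 places in its window. Both lie on the strand opposite the gene, so the printed strand reads CACATGA (capitals).
GPNMB, chr7:23246525-23246774, plus strand: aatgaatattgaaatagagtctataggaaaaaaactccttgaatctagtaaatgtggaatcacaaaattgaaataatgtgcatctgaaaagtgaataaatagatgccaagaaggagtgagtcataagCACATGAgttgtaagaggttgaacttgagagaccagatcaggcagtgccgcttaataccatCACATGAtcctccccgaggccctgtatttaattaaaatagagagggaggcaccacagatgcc
These are letter matches in short windows, and no binding was measured.

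Each library held between 56159110 and 68393177 counts, so that 3 counts correspond to 0.0439 to 0.0534 CPM, a unit that scales the reads of each library to a common total. CCN3 stood at 103, 102 and 98.1 CPM in shCTRL and at 47.4, 47.2 and 46.5 CPM in shCCN3, a log2 fold change of -1.10 (SE 0.055, adjusted p = 1.34e-06 in edgeR's quasi-likelihood test). VIM and CD44 were high in all 6 libraries, at 6617 to 7990 and 1762 to 2212 CPM, and ESR1, EPCAM and CDH1 were at no more than 0.16 CPM. PGR stood at 2.66 to 4.56 CPM and ERBB2 at 72 to 82.8 CPM. The library shCCN3 replicate 2 stood apart from the others of its group: its log2 values deviated from the group mean by an SD of 0.178 across genes, against 0.114 to 0.139 in the other libraries. It was also the lowest of its group in 8 of the 10 members, all but RRAGA and RRAGD, and in 42.0% of all genes tested. For members, values without it are therefore given where they change a call or move the log2 fold change by over 1.5 times.

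All 10 members passed the filter on low counts, which left 17419 genes. At an adjusted p under 0.05, 33.4% of the genes tested were called, 16.2% as higher and 17.3% as lower in shCCN3. Among the members, 6 of 10 were called, RRAGB, FNIP2 and TFEB as higher and RRAGC, RRAGD and FLCN as lower, while RRAGA, FNIP1, MITF and TFE3 were not. The groups of 3 did not overlap in 46.3% of all genes tested and in 8 of 10 members, all but FNIP1 and MITF. The median log2 fold change was 0.077 over the members and 0.0076 over all genes tested, and with members chosen on this contrast these counts support nothing. Without shCCN3 replicate 2 the same number of members, 6, was called.

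Of the 4 Rag GTPases, RRAGD differed most. Its level was 4.93, 4.25 and 4.11 CPM in shCTRL and 0.57, 0.70 and 0.53 CPM in shCCN3, from 339, 267 and 276 reads against 39, 39 and 34 reads. Every shCCN3 library lay far under every shCTRL library. The mean fell from 4.43 ± 0.440 to 0.600 ± 0.0900 CPM (SD, n = 3 each). This was 7.40-fold lower (log2 fold change -2.89, SE 0.171), and 104 of the 17419 genes tested (0.597%) had a lower value. The value stayed between -3.01 and -2.80 when any 1 library was left out.

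RRAGC, the closest relative of RRAGD, was lower in shCCN3 by a much smaller amount. It was at 84.8, 82.3 and 83.0 CPM in shCTRL and at 64.2, 61.0 and 63.6 CPM in shCCN3, without overlap. The log2 fold change was -0.41 (SE 0.056). An annotated transcript on the same strand covers 1183 exonic bases of RRAGC, and 22.2% of the 50-base stretches of its transcripts also occur in other genes, so its counts are less certain than those of RRAGD, which shared no such stretch.

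RRAGA, by far the most abundant Rag transcript, barely separated the groups. It was at 115, 120 and 123 CPM in shCTRL and at 123, 135 and 126 CPM in shCCN3, the highest shCTRL library falling just under the lowest shCCN3 library. Its log2 fold change was 0.10 (SE 0.061), which was not called and was 0.06 without shCCN3 replicate 2. RRAGB, the less abundant partner in the same position of the dimer, was at 4.19, 4.6 and 4.08 CPM in shCTRL and at 6.80, 4.93 and 6.06 CPM in shCCN3. The shCCN3 values were all higher but spread widely, and the log2 fold change was 0.47 (SE 0.137). That call was not kept without shCTRL replicate 1, 2 or 3 or without shCCN3 replicate 1 or 3, where the log2 fold change was 0.45, 0.52, 0.44, 0.36 and 0.45 in that order, and it was kept at 0.59 without shCCN3 replicate 2.

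**Figure D1:**
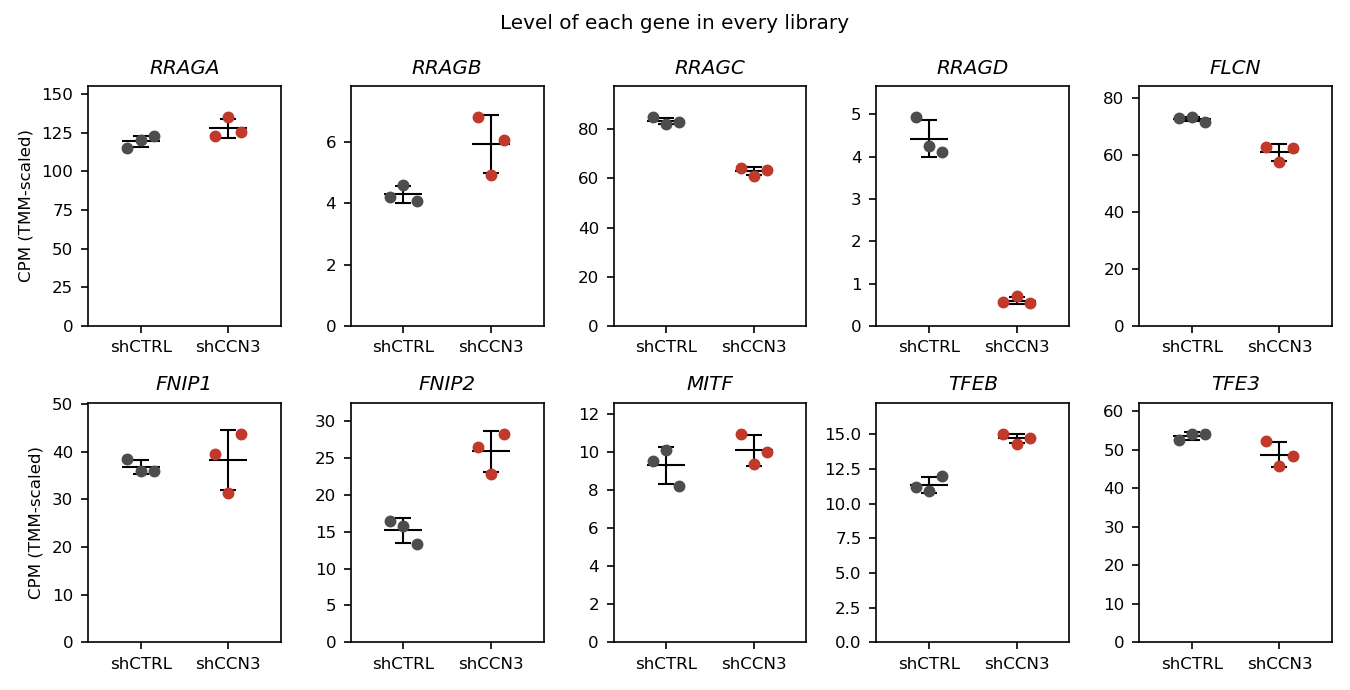
Level of each of the 10 genes in TMM-scaled CPM (vertical axes, each from 0) in the shCTRL and shCCN3 libraries. Points are single libraries and the bars give the mean ± SD (n = 3). RRAGD lies at 4.11 to 4.93 CPM in shCTRL and 0.53 to 0.70 CPM in shCCN3, whereas the groups of FNIP1 and MITF overlap.

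In the folliculin complex, FLCN was lower and FNIP2 higher in shCCN3. FLCN was at 72.9, 73.1 and 71.5 CPM in shCTRL and at 62.7, 57.4 and 62.5 CPM in shCCN3. The groups were separate, with a log2 fold change of -0.25 (SE 0.060), which was no longer called without shCTRL replicate 2 at -0.24. A protein-coding gene on the same strand shares 1161 exonic bases with FLCN, and 12.3% of FLCN's 50-base stretches occur in other genes. FNIP1 shares 281 exonic bases with another protein-coding gene on its strand. The genes overlapping RRAGC, FLCN and FNIP1 were not matched by symbol to a counted gene, so their own counts are not known.

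FNIP2, 1 of the 2 alternative partners of folliculin, was at 16.5, 15.7 and 13.3 CPM in shCTRL and at 26.5, 22.8 and 28.2 CPM in shCCN3. All shCCN3 libraries were above all shCTRL libraries, and the log2 fold change of 0.77 (SE 0.109) was the highest of the 10 members. FNIP1, the other partner, was at 38.5, 35.9 and 35.9 CPM in shCTRL and at 39.4, 31.3 and 43.7 CPM in shCCN3. The shCCN3 libraries fell on both sides of the shCTRL libraries, the log2 fold change was 0.06 (SE 0.111), and it was 0.18 without shCCN3 replicate 2 and -0.05 without shCCN3 replicate 3.

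Among the transcription factors, MITF was at 9.54, 10.1 and 8.25 CPM in shCTRL and at 11, 9.37 and 10.0 CPM in shCCN3. The groups overlapped, with a log2 fold change of 0.12 (SE 0.106). It was 0.04 without shCTRL replicate 3, 0.06 without shCCN3 replicate 1 and 0.19 without shCTRL replicate 2, and counts per gene do not separate the promoters and isoforms of MITF. TFEB, a main activator of lysosomal genes, was at 11.2, 10.9 and 12 CPM in shCTRL and at 15, 14.3 and 14.7 CPM in shCCN3. It was higher in every shCCN3 library, with a log2 fold change of 0.37 (SE 0.078). TFE3, the most abundant of these factors, was at 52.5, 54.2 and 54.1 CPM in shCTRL and at 52.2, 45.7 and 48.3 CPM in shCCN3. The highest shCCN3 library lay just under the lowest shCTRL library, and the log2 fold change of -0.14 (SE 0.067) was not called and was -0.09 without shCCN3 replicate 2. TFEC, the other factor of the family, lies on chromosome 7. It had 7, 4 and 8 reads in shCTRL and 0 in each shCCN3 library, too few to be tested. These values are RNA, and protein was not measured here. For CCN3 knockdown cells the paper reported unchanged MITF mRNA (data not shown) but lower MITF protein, also in the nucleus. In its western blots TFEB and TFE3 protein were not reduced.

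Levels of different genes were compared per kilobase of exon (RPKM). In shCTRL the order from high to low was RRAGA at 75.1 RPKM, RRAGC at 16.1, TFE3 at 12.5, FLCN at 7.41, FNIP1 at 4.63, TFEB at 2.01, RRAGB at 1.57, FNIP2 at 1.39, MITF at 1.30 and RRAGD at 0.874 RPKM (means of 3). Only the neighbours RRAGB and FNIP2, and FNIP2 and MITF, overlapped between libraries. In shCCN3 the order was RRAGA at 80.5 RPKM, RRAGC at 12.2, TFE3 at 11.4, FLCN at 6.22, FNIP1 at 4.81, TFEB at 2.60, FNIP2 at 2.38, RRAGB at 2.18, MITF at 1.41 and RRAGD at 0.118 RPKM. RRAGC and TFE3, TFEB and FNIP2, and FNIP2 and RRAGB then overlapped, and RRAGD was the lowest of the 10 in both groups.

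Expressed as shares of RPKM within each family, RRAGD made up 5.13% ± 0.412 of the RRAGC and RRAGD sum in shCTRL and 0.964% ± 0.169 in shCCN3 (SD, n = 3). That sum was 17.0 RPKM in shCTRL and 12.3 RPKM in shCCN3, so RRAGC accounted for most of its difference. FNIP2 made up 23.1% ± 1.62 of the FNIP sum in shCTRL and 33.2% ± 1.34 in shCCN3, without overlap. TFEB made up 12.7% ± 0.633 of the MITF, TFEB and TFE3 sum in shCTRL and 16.9% ± 0.624 in shCCN3, while TFE3 stood at 79.1% and 73.9%. The share of RRAGB in the RRAGA and RRAGB sum, 2.05% ± 0.144 and 2.65% ± 0.526, overlapped because shCCN3 replicate 2 was at 2.08%. RPKM rests on annotated exon lengths, so a share depends on which transcripts are used.

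Whole chromosome segments moved together in this contrast. On chromosome 7, 484 of 821 tested genes were called lower and 31 higher, and their median log2 fold change was -0.43. For each member the median of the 24 nearest genes tested, 12 on each side, was therefore taken. RRAGD on chromosome 6 stood at -2.89 beside neighbours at -0.08, while the chromosome as a whole had a median of 0.34. TFEB, on the other arm of chromosome 6, stood at 0.37 beside neighbours at 0.48, so it was no higher than the genes around it. RRAGC on chromosome 1 stood at -0.41 beside neighbours at -0.27. FNIP2 at 0.77 and RRAGB at 0.47 were above neighbours at 0.16 and -0.01, and FLCN at -0.25 was below neighbours at -0.04. For RRAGA, FNIP1, MITF and TFE3 the gene and its neighbours differed by 0.07, -0.01, 0.04 and -0.13. The part of these segments in the members' values was not tested.

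**Figure D2:**
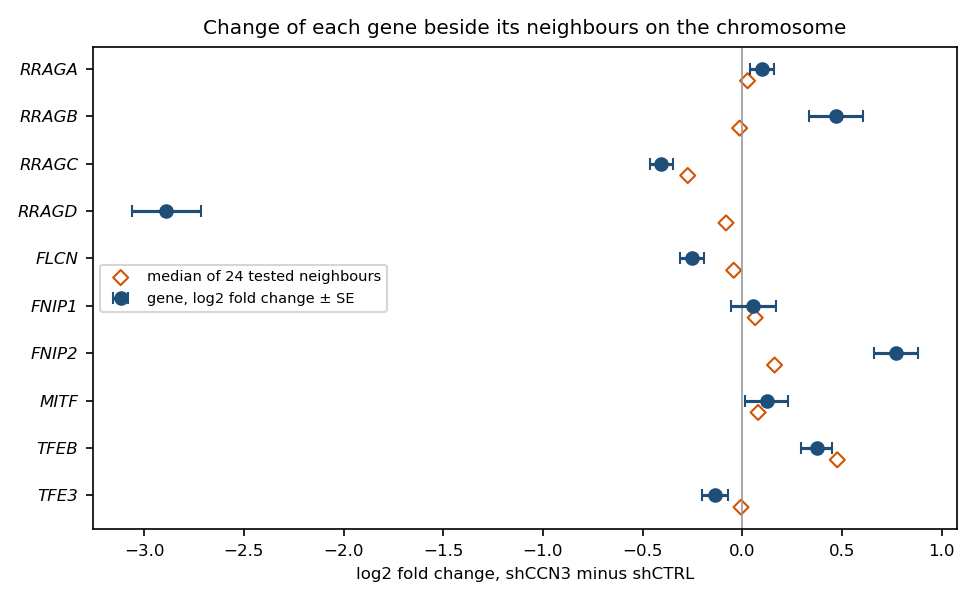
Log2 fold change of each of the 10 genes, shCCN3 minus shCTRL (horizontal axis; filled points, bars are SE), with the median log2 fold change of its 24 nearest tested genes (open diamonds). RRAGD lies at -2.89 with neighbours at -0.08, and TFEB at 0.37 lies below neighbours at 0.48.

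The wider pathway was read from 76 genes that are not members, sorted into complexes and roles, of which 66 were tested. Of these, 10 were called higher and 19 lower (43.9%, against 33.4% of all genes tested). All lists were chosen with earlier results of these data known, so the shares called in them are a description only. Off chromosome 7, 10 were called higher and 14 lower of 60 tested (40%, against 32.2% of all genes tested there). The median log2 fold change was -0.04 over the 66 tested genes and -0.0031 over the 60 off chromosome 7. Leaving out shCCN3 replicate 2 raised the number called among the pathway genes from 29 to 37. It raised the share of all genes called from 33.4% to 40.5%. Adjusted p-values in the following are from edgeR's quasi-likelihood test over all genes tested.

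Of 17 genes in the complexes that anchor and control the Rag GTPases, 1 was called higher, 6 lower, 2 of them on chromosome 7, and 10 were not called. Over all genes tested, 16.2% were called higher and 17.3% lower. Ragulator, the lysosomal anchor of the Rag dimers, had 3 of 5 members lower. LAMTOR4 on chromosome 7 was at -0.63 (SE 0.123, adjusted p = 0.0037), with neighbours at -0.59. LAMTOR5 was at -0.42 and LAMTOR2 at -0.29 (SE 0.097, adjusted p = 0.0475), with neighbours on chromosome 1 at -0.21 and -0.13. LAMTOR2 kept its call when shCCN3 replicate 2 was left out and lost it when any other library was, with adjusted p from 0.0697 to 0.168, and it also lost it without the filter on low counts (adjusted p = 0.0639) and with upper-quartile factors (adjusted p = 0.0535). In GATOR1, which turns RagA and RagB off, 1 of 3 genes was lower, DEPDC5 at -0.29 (SE 0.084, adjusted p = 0.0248), a call lost without shCTRL replicate 1, 2 or 3 or shCCN3 replicate 3 (adjusted p 0.0526 to 0.104). In GATOR2, which opposes GATOR1, WDR59 rose by 0.77 (SE 0.063, adjusted p = 2.12e-05) beside neighbours at 0.62. MIOS on chromosome 7 was lower at -0.46 (SE 0.074, adjusted p = 0.00119) beside neighbours at -0.28. The other 3 of the 5 GATOR2 genes were not called. In KICSTOR, which holds GATOR1 at the lysosome, 1 of 4 genes was lower, KICS2 (listed as C12orf66) at -0.51 (SE 0.134, adjusted p = 0.0171). That call was lost without shCTRL replicate 1 or shCCN3 replicate 1 or 3 (adjusted p 0.0505 to 0.0659). Neighbours stood at 0.0030 for DEPDC5 and at 0.09 for KICS2.

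Of 8 genes for proteins that report amino acids to the Rag GTPases, 2 were higher and 3 lower. The share called was 62.5%, against 33.4% of all genes tested, in a list chosen with earlier results known. SESN2, a leucine sensor and stress-induced gene, rose by 0.65 (SE 0.078, adjusted p = 0.000219) from 17.0 ± 0.161 to 26.7 ± 2.14 CPM (SD, n = 3). Its relative SESN1 was also higher at 0.58 and its relative SESN3 was lower at -0.62, so the sestrins did not move one way. Neighbours stood at -0.12 for SESN2, 0.30 for SESN1 and 0.17 for SESN3. CASTOR2, related to the arginine sensor CASTOR1, was the lowest at -0.76 (SE 0.098, adjusted p = 0.000339), on chromosome 7 beside neighbours at -0.68.

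In mTORC1 and its regulators 1 of 9 genes was higher and 2 were lower (33.3% called, against 33.4% of all genes tested). DEPTOR, an inhibitor of mTOR, was at 14.8, 13.6 and 12.5 CPM in shCTRL and at 33.4, 35.2 and 34.5 CPM in shCCN3. The groups were far apart, with a log2 fold change of 1.34 (SE 0.080, adjusted p = 3.62e-06), the largest rise of the 66 genes, and neighbours stood at 0.23. RPTOR, the mTORC1 subunit that binds the Rag GTPases, was lower at -0.46 (SE 0.061, adjusted p = 0.000428), from 96.9 ± 4.20 to 70.5 ± 2.54 CPM. Its neighbours stood at -0.02. RHEB on chromosome 7, which activates mTORC1, was lower at -0.30 beside neighbours at -0.44. In the C9orf72 complex, a relative of the folliculin complex, C9orf72 was lower at -0.83 (SE 0.253, adjusted p = 0.0326) beside neighbours at 0.06. The other 2 genes were not called. The C9orf72 call was lost without shCTRL replicate 1, 2 or 3 or shCCN3 replicate 1 (adjusted p 0.0516 to 0.116).

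Genes for proteins that act on MITF, TFEB and TFE3, such as calcineurin subunits, GSK3 kinases, 14-3-3 proteins and the exporter XPO1, were largely not called. Of 8 tested, 1 was higher (12.5% called, against 33.4% of all genes tested). It was the 14-3-3 gene YWHAZ at 0.21 (SE 0.049, adjusted p = 0.0101), beside neighbours at 0.18. That call was lost without shCTRL replicate 2 or 3 (adjusted p = 0.0565 and 0.0537).

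Genes known as targets of MITF/TFE factors went in both directions, with 4 of 18 tested higher, 7 lower and 7 not called. The 11 called were 61.1%, against 33.4% of all genes tested, in a list chosen with earlier results known. Off chromosome 7 the share was 58.8%, against 32.2% of all genes tested there. The median log2 fold change was near zero (-0.0010). GPNMB was at 284, 283 and 264 CPM in shCTRL and at 140, 128 and 143 CPM in shCCN3. The groups did not overlap, with a log2 fold change of -1.01 (SE 0.064, adjusted p = 4.86e-06), and its neighbours on chromosome 7 stood at -0.31. GPNMB was picked out by the study from these libraries together with patient data, so its direction here is not independent evidence. The paper separately reported lower GPNMB RNA by RT-qPCR, lower GPNMB protein and lower GPNMB promoter activity in CCN3 knockdown cell lines. With CCN3 overexpression it reported the opposite direction for all of them. The cathepsin genes CTSD, at -0.54, and CTSB, at -0.31, which encode lysosomal proteases, were lower as well. They fell from 1379 ± 112 to 950.1 ± 78.6 CPM and from 1015 ± 38.4 to 818 ± 32.9 CPM, with neighbours at -0.12 and -0.13. The largest rise was that of MAP1LC3B, the autophagosome marker LC3B, at 0.69 (SE 0.057, adjusted p = 2.16e-05), with neighbours on chromosome 16 at 0.63. ATP6V1H, a subunit of the lysosomal proton pump, was higher at 0.37 beside neighbours at 0.60. ATP6V0D1, another pump subunit, was lower at -0.22 (SE 0.071, adjusted p = 0.0408) beside neighbours at -0.15, a call lost under 7 of 13 alternatives. NEU1, a lysosomal sialidase, was higher at 0.36 beside neighbours at 0.40. RRAGD, also a known target but chosen with its fall known, had a log2 fold change below that of each of these 18 tested genes. The other members ran from -0.41 (RRAGC) to 0.77 (FNIP2), and which of them are targets was not tested.

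Pigment cell genes, the classical MITF targets in melanocytes, were nearly silent. Of 10, 3 passed the filter, and TYR, DCT and MLANA had no read in any library, while TYRP1 did not exceed 0.03 CPM and PMEL 0.52 CPM. MC1R, the melanocortin receptor gene, was the only one of them at 1 CPM or more in any library. It was higher in shCCN3 at 0.85 (SE 0.123, adjusted p = 0.000717), from 8.41 ± 1.32 to 15.1 ± 1.30 CPM, and its neighbours on chromosome 16 stood at 0.59.

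**Figure D3:**
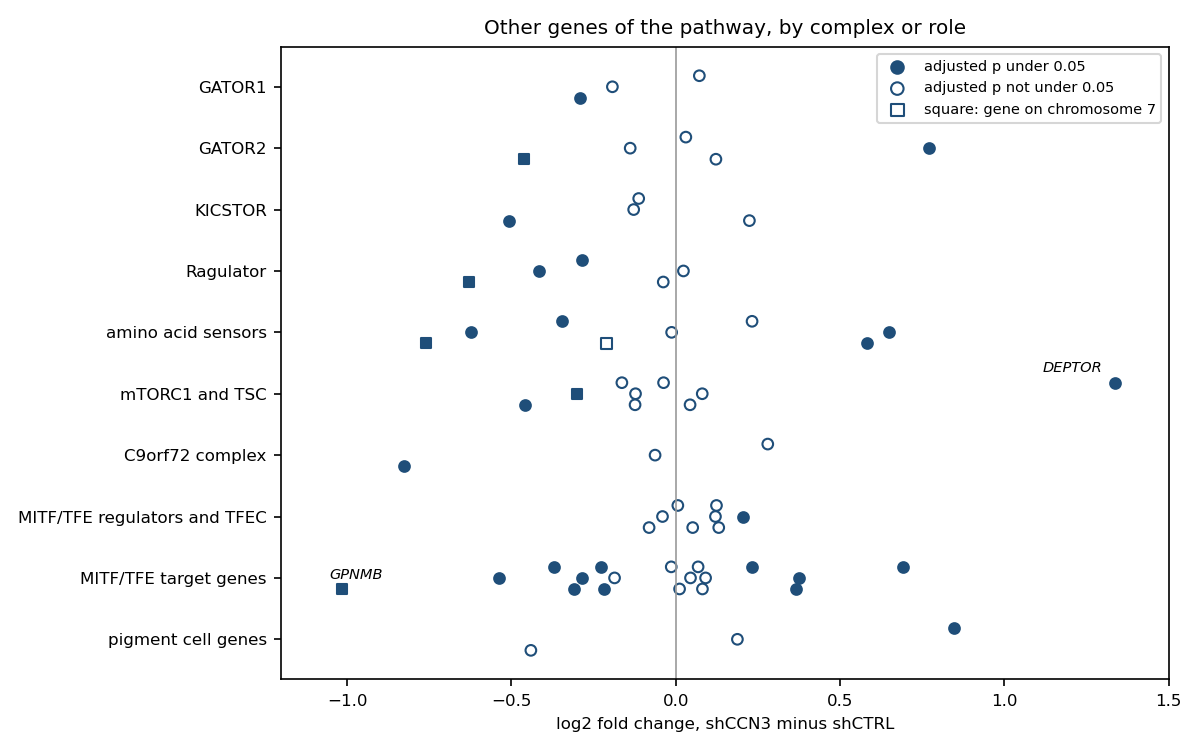
Log2 fold change, shCCN3 minus shCTRL (horizontal axis), of the 66 tested pathway genes by complex or role (rows; the vertical offset within a row only separates points). Filled symbols have an adjusted p under 0.05, and squares are genes on chromosome 7. DEPTOR at 1.34 and GPNMB at -1.01 lie farthest out.

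The genes most like RRAGD over the 6 libraries were sought among 13623 genes with a mean of at least 1 CPM, by the Euclidean distance between centred log2 CPM profiles. The nearest were TMEM132B at a distance of 0.325, CALCRL at 0.358, LOC389602 at 0.404, CYTIP at 0.408 and NDST4 at 0.418. Their log2 fold changes were -2.70, -3.11, -2.77, -2.64 and -3.06, all close to the -2.89 of RRAGD. They lie on chromosomes 12, 2, 7, 2 and 4, so none neighbours RRAGD on chromosome 6. CYTIP fell from 30.3 ± 0.612 to 4.89 ± 0.866 CPM and NDST4 from 21.3 ± 1.27 to 2.55 ± 0.0583 CPM (SD, n = 3), at levels several times that of RRAGD. With 6 libraries in 2 groups, likeness mostly reflects a fall of similar size.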

How the data were processed

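RNA of Hs578T shCTRL and shCCN3 cells was sequenced on an Illumina NovaSeq from TruSeq Stranded mRNA libraries. The authors deposited raw read counts per gene, listed by NCBI Gene ID and symbol, without normalization. The submitters' processing notes name bcl2fastq 2.20.0, Trimmomatic, HISAT2 2.1.0, StringTie 2.1.3d, DESeq2 and GRCh38. The strand setting and the annotation release of the counting are not given in the sources used here, so overlapping genes are uncertain. The deposited counts were tested with edgeR 4.0.16 in R 4.3.3, with TMM factors, edgeR's filter on low counts (17419 genes), the quasi-likelihood test without a block and Benjamini-Hochberg adjustment over all genes tested. The script was tested on simulated data. CPM were TMM-scaled and divided by GENCODE 29 exon length for RPKM. Positions and promoters came from RefSeq on GRCh38.p14.

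The members and lists were chosen with earlier results of these data known. The genes named are the members, CCN3, the called genes with the highest and lowest log2 fold change of each list, GPNMB, TFEC, pigment genes at 1 CPM or more, and the 5 genes most like RRAGD (log2 of CPM + 0.01). LAMTOR5, SESN1, SESN3, RHEB, CTSD, CTSB, ATP6V1H, ATP6V0D1 and NEU1 were added after their values were seen. VIM, CD44, ESR1, PGR, ERBB2, EPCAM and CDH1 were listed as markers of the cell line and TYR, TYRP1, DCT, PMEL and MLANA as markers of pigment cells, and are given as such. Alternatives were DESeq2 1.42.0, its size factors, upper-quartile factors, no filter, at least 10 counts in every library, voom in limma 3.58.1, a replicate block, and each library left out. An exact permutation test of 3 against 3 libraries cannot give a two-sided p below 0.1. Within a group, the chi-square per degree of freedom over genes was at least 7.04, so no library was a copy of another.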

Additional observations from a re-analysis of the deposited data

How the results depend on the processing

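Under 13 alternatives the number of genes called lay between 4181 and 7229, that of members between 4 and 6, and that of pathway genes between 21 and 37, each within 1.5 times the reported number. All these ranges were set by leaving out 1 library. Of 130 recomputed member values, 123 kept direction and call and 6 lost the call, 5 of RRAGB and 1 of FLCN, all where a library was left out. FNIP1 turned from 0.06 to -0.0536 without shCCN3 replicate 3 and ranged from -0.0536 to 0.180 over the libraries left out. Of the 29 pathway genes called, 19 were called under every alternative and none turned. CCN3 lay between -1.12 and -1.09. Replicate numbers did not pair the samples: deviations from the group means correlated at 0.149, -0.0726 and -0.259 for numbers 1 to 3. With a replicate block 4887 genes, 6 members and 23 pathway genes were called, with DEPDC5, LAMTOR2, YWHAZ, SQSTM1, UVRAG and ATP6V0D1 lost. At 3 libraries a group, precision rests on the spread between libraries, and for RRAGD also on 34 to 39 reads in each shCCN3 library.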
